A study of Mus musculus with 6 samples.

Results

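The genes described here encode the growth factor IGF1, the receptors IGF1R and IGF2R, and the IGF binding proteins IGFBP1 to IGFBP7. They were picked by gene symbol, and all 10 were found among the 54838 gene identifiers counted. All 10 also passed the filter on low counts that left 17086 genes to test. RNA was prepared from glomeruli, the capillary tufts where blood is filtered, isolated from 3-week-old mice. A set of 3 libraries was labelled CTRL (animals 157, 162 and 163, genotype wild type) and a set of 3 was labelled KO (animals 146, 147 and 148, genotype bPIX -/-, with the loss restricted to podocytes). Arhgef7 encodes bPIX, an exchange factor that loads small GTPases with GTP. Podocytes wrap the capillaries with interlocking foot processes. The sources used here name neither the Cre driver nor the deleted exons. File names carry the opposite group for all 6 libraries. Groups were taken from the sample labels, so every direction below rests on those labels.

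IGF1 acts through IGF1R, a receptor tyrosine kinase that signals through insulin receptor substrates to PI3 kinase and AKT. IGF2R, the mannose 6-phosphate receptor, clears IGF2 from the cell surface and sorts lysosomal enzymes. The binding proteins hold IGFs in the extracellular space and set how much of the ligand reaches the receptor, and proteases such as the pappalysins release it again. IGFBP7 binds IGFs weakly compared with the other members and is abundant in blood vessels. In the mouse kidney Igfbp5 is known as a transcript of glomerular endothelial cells.

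The binding protein gene Igfbp5 had the largest difference of the 10 genes. Its level was 686, 707 and 704 CPM in CTRL 157, 162 and 163 and 3247, 1630 and 1109 CPM in KO 146, 147 and 148. CPM stands for counts scaled to a common library size with edgeR's TMM factors. Igfbp7 also lay above the CTRL range in each library labelled KO, and Igfbp4 lay below it. By edgeR's quasi-likelihood test, 0 of the 10 genes passed a Benjamini-Hochberg adjusted p of 0.05 in either direction, where 1.01% of all tested genes did (0.591% higher and 0.421% lower). At an unadjusted edgeR p below 0.05 there were 2, against 29.3% of all tested genes: Igfbp5 on the higher side (17.5% of all genes) and Igfbp4 on the lower (11.8%). DESeq2 called both, with 17.3% of all genes (11.6% higher and 5.64% lower), and limma-voom called 0, with 0.796%. Counting KO against CTRL, the log2 fold changes of the 10 genes had a median of 0.1, and those of all tested genes -0.006. With CTRL 157, CTRL 162, CTRL 163 or KO 147 left out, edgeR called 0 of the 10 genes and 0.0114%, 0.0171%, 0.0569% and 0.0115% of all genes. Scaling by library totals moved the median of all genes to 0.132.

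Groups did not overlap for the 3 most abundant binding protein genes, as for 41.5% of all tested genes. The stretches just upstream of these 3 genes are shown. They come from RefSeq's promoter table on GRCm38.p6, which held 9 of the 10 genes (no window for Igf1 lay upstream of its annotated body). Each is written 5′ to 3′ on the gene's strand and ends just before the annotated start. Capitals mark the TATA box TATAAA, the TATA-like TTTAAA, the GC box GGGCGG and the TEAD motif GGAATG, searched on both strands. The forkhead motif GTAAACA, the AP-1 motif TGANTCA and the E-box CANNTG were searched too and are not marked. The motifs were chosen after the sequences were seen.
Igfbp5 (chr1:72874885-72875115, minus strand): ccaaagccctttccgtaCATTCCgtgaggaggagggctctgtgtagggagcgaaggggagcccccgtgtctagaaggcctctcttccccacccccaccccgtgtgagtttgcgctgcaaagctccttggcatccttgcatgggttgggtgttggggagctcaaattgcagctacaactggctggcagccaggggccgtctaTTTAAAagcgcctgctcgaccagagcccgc
Igfbp7 (chr5:77408046-77408295, minus strand): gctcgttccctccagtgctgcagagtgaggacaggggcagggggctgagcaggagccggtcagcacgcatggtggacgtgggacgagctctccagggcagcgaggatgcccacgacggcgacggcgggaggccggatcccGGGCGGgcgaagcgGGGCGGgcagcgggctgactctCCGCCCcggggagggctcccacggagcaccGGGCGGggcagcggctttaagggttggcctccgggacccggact
Igfbp4 (chr11:99040994-99041243, plus strand): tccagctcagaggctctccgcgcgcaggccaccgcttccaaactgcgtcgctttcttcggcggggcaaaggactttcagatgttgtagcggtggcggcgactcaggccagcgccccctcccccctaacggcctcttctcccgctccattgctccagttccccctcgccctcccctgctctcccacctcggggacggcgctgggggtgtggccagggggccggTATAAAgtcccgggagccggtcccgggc
Igfbp5 had 1 TATA-like match, 24 bases before the end of its window, and 1 TEAD match, 208 bases before it. Windows of the same length held these motifs in 11.5% and 11.8% of all 32851 promoters. Igfbp4 had 1 TATA box 22 bases before its end, a motif held by 12.4% of promoters at that length. The Igfbp7 window held 4 GC boxes and no TATA match, and 32.7% of promoters held at least 1 GC box. GC content was 60.6%, 74% and 69.2% for Igfbp5, Igfbp7 and Igfbp4. A match is a description of these letters and not of binding.

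Libraries differed in their levels of glomerular and tubular markers, which bears on every gene level given above and below. Gene counts ran from 39841396 to 51917945 per library. Summed CPM of 18 podocyte markers lay between 1510 and 1772 for the CTRL group and reached 10625, 4662 and 3190 for KO 146, 147 and 148. The 18 glomerular endothelial markers summed to 869 to 1023 and to 5845, 2618 and 1739 CPM. The 16 mesangial and smooth muscle markers summed to 413 to 420 and to 2597, 983 and 694 CPM. Proximal tubule markers, 20 in number, went the other way, with 42017 to 44410 and 20005, 30330 and 33804 CPM. The summed CPM of 10 parietal epithelial markers did not rise, with 266 to 283 in the CTRL group and 191, 270 and 274 in KO 146, 147 and 148. Single genes of this list differed in direction, with a median log2 fold change of -0.19 and a highest of 1.27. EdgeR called 1 of them higher and 0 lower, next to 0.591% and 0.421% of all tested genes. None of the marker genes in these lists was at 0 in all libraries. In such bulk RNA a change in the number of cells of a type and a change in RNA per cell cannot be told apart. The first principal component, with 68.8% of the variance, separated the groups. CTRL libraries lay at -42.3 to -34.7 on it, and KO 148, 147 and 146 at 3.5, 26.1 and 82.7, with KO 146 farthest out. Arhgef7 itself had 88.4 to 94.1 CPM in the CTRL group and 133, 89.6 and 85.9 CPM in KO 146, 147 and 148 (log2 fold change 0.17, SE 0.17, edgeR adjusted p = 0.544). Over the alternative fits its log2 fold change ran from -0.4 to 0.32, so its sign turned. The adjusted p of those fits (edgeR, DESeq2 or limma-voom) ran from 0.0798 to 0.733. A count per gene cannot show the loss of single exons.

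**Figure D1:**
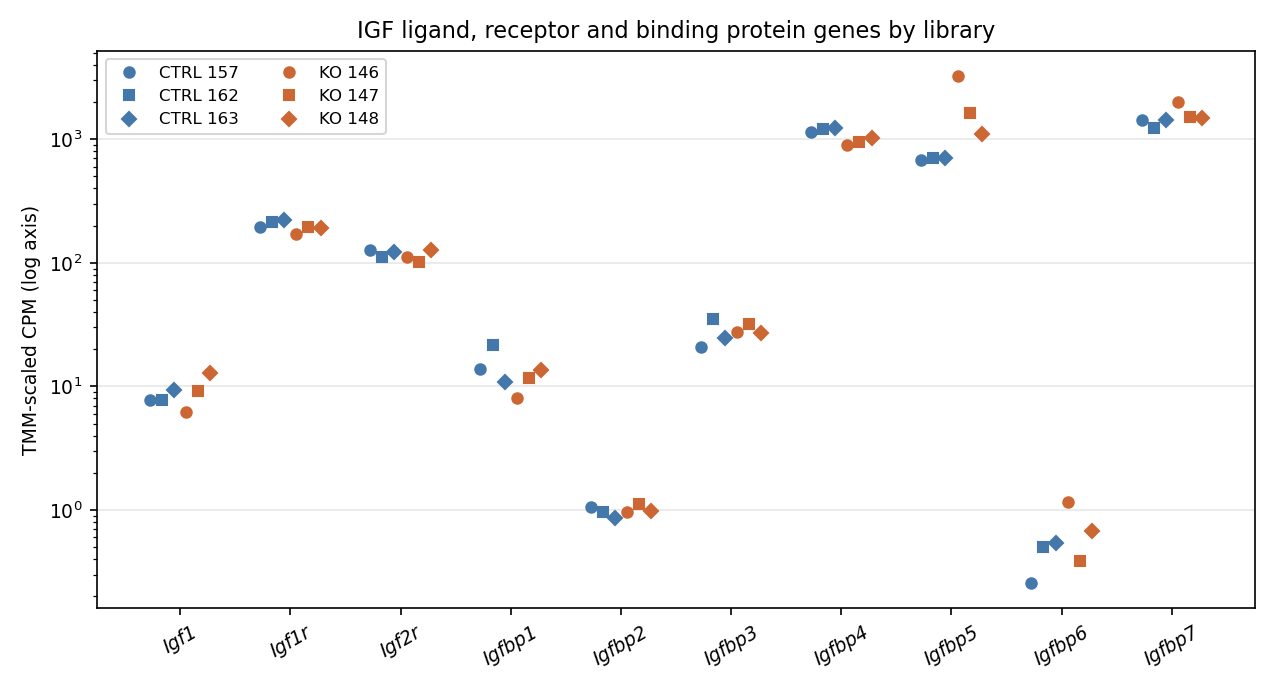
Level of each gene in each library, as TMM-scaled CPM on a log axis, with CTRL libraries in blue and KO libraries in orange. Igfbp5 separates the groups most widely, from 686 to 707 CPM in CTRL against 1109 to 3247 CPM in KO, while the ligand and receptor genes overlap or nearly touch.

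Per kilobase of annotated exon, the scale on which genes can be compared, the levels spanned over 3 orders of magnitude. The length used was the union of all annotated exons. For Igf1r that was 16791 bp where its longest transcript had 11409 bp, for Igf2r 9308 and 8887 bp, and for Igfbp3 3130 and 2421 bp. The order of genes with close levels, and the size of ratios between genes, depend on this choice. In the libraries labelled CTRL, Igfbp7 led with 1130 ± 96.1 CPM per kb, followed by Igfbp4 with 271 ± 8.96 and Igfbp5 with 116 ± 1.94 (SD, n = 3 each). These 3 genes did not overlap with each other in the CTRL group. Igf2r (12.9 ± 0.77), Igf1r (12.5 ± 0.81), Igfbp1 (10.1 ± 3.63) and Igfbp3 (8.6 ± 2.34) came next, in CPM per kb (SD, n = 3 each), and each overlapped with its neighbour in this order. Igf1 (0.836 ± 0.094), Igfbp2 (0.519 ± 0.051) and Igfbp6 (0.389 ± 0.14) were lowest on the same scale (SD, n = 3 each), and the last 2 overlapped. In the libraries labelled KO, Igfbp7 stood at 1380 ± 238 CPM per kb, Igfbp5 at 332 ± 186 and Igfbp4 at 218 ± 14.5 (SD, n = 3 each). Igfbp5 and Igfbp4 overlapped there, at 185 to 541 against 205 to 234 CPM per kb. Igfbp5 was the lowest of the 3 in every CTRL library and in KO 148, and lay above Igfbp4 in KO 146 and KO 147.

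The ligand gene Igf1 (ENSMUSG00000020053, chromosome 10, 87858265 to 87937042, plus strand, GRCm38) was a low transcript in these preparations. It had 7.74, 7.75 and 9.35 CPM in CTRL 157, 162 and 163 and 6.18, 9.24 and 12.9 CPM in KO 146, 147 and 148. The KO libraries held both the lowest and the highest value, so the groups overlapped. The log2 fold change was 0.19 (SE 0.26, 95% interval -0.44 to 0.81, edgeR adjusted p = 0.662). Among the KO libraries the order of Igf1 was the reverse of that of the glomerular markers, with the lowest level in KO 146 and the highest in KO 148. With the mean of the endothelial and mesangial marker lists as a covariate the value was 0.95 (SE 0.18) and passed the threshold (edgeR adjusted p = 0.0196), and 1.86% of all genes were called in that fit. With the proximal tubule mean as covariate it was 0.92 (edgeR adjusted p = 0.0635). Both covariates separate the groups themselves, so group and marker content cannot be told apart in these fits. Without KO 148 and with no covariate the value was -0.11 (edgeR adjusted p = 0.74), and over all alternatives the adjusted p ran from 0.0196 to 0.838.

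Both receptor genes had small differences that missed the threshold. Igf1r, the signalling receptor (ENSMUSG00000005533, chromosome 7, 67952827 to 68233668, plus strand), had 195, 214 and 221 CPM in the CTRL libraries and 171, 195 and 191 CPM in KO 146, 147 and 148. The groups met at 195 CPM, and the log2 fold change was -0.18 (SE 0.1, 95% interval -0.41 to 0.05, edgeR adjusted p = 0.267). For Igf2r, the clearance and lysosomal sorting receptor (ENSMUSG00000023830, chromosome 17, 12682406 to 12769664, minus strand), the CTRL values were 126, 112 and 122 CPM and the KO values 112, 102 and 127 CPM. These groups overlapped over most of their range (log2 fold change -0.08, SE 0.11, 95% interval -0.34 to 0.17, edgeR adjusted p = 0.637). The intervals leave out a change of 2-fold in either direction for both receptors. Per kilobase, the ratio of Igf1r to Igf2r was 0.855, 1.06 and 1.0 in the CTRL libraries and 0.848, 1.06 and 0.83 in the KO libraries (exact permutation p = 0.6, two-sided, smallest possible 0.1). The antisense transcript Airn overlaps the Igf2r gene body without sharing annotated exon bases.

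Igfbp5 (ENSMUSG00000026185, chromosome 1, 72857932 to 72874884, minus strand) encodes a secreted binding protein that also attaches to extracellular matrix. Reads numbered 29510, 26933 and 31167 in the CTRL libraries and 191610, 67531 and 50390 in KO 146, 147 and 148. All KO libraries lay above all CTRL libraries, and the 3 CTRL values lay within a few percent of each other while the KO values spread widely. Mean levels were 699 ± 11.6 CPM in the CTRL group and 1995 ± 1115 CPM in the KO group (SD, n = 3 each). The log2 fold change was 1.51 (SE 0.38, 95% interval 0.61 to 2.41), a 2.85-fold difference, with an edgeR adjusted p = 0.0775. A larger log2 fold change was found in 5.07% of the tested genes. The call turned on single libraries and on the tool. It was 0.96 (SE 0.15, edgeR adjusted p = 0.00859) without KO 146, where 17.2% of all genes were called. Without KO 148 it was 1.8 (SE 0.28, edgeR adjusted p = 0.0149), where 18.3% were called. DESeq2 gave 1.52 (adjusted p = 6.54e-04), and over all alternatives the adjusted p ran from 6.54e-04 to 0.616.

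**Figure D2:**
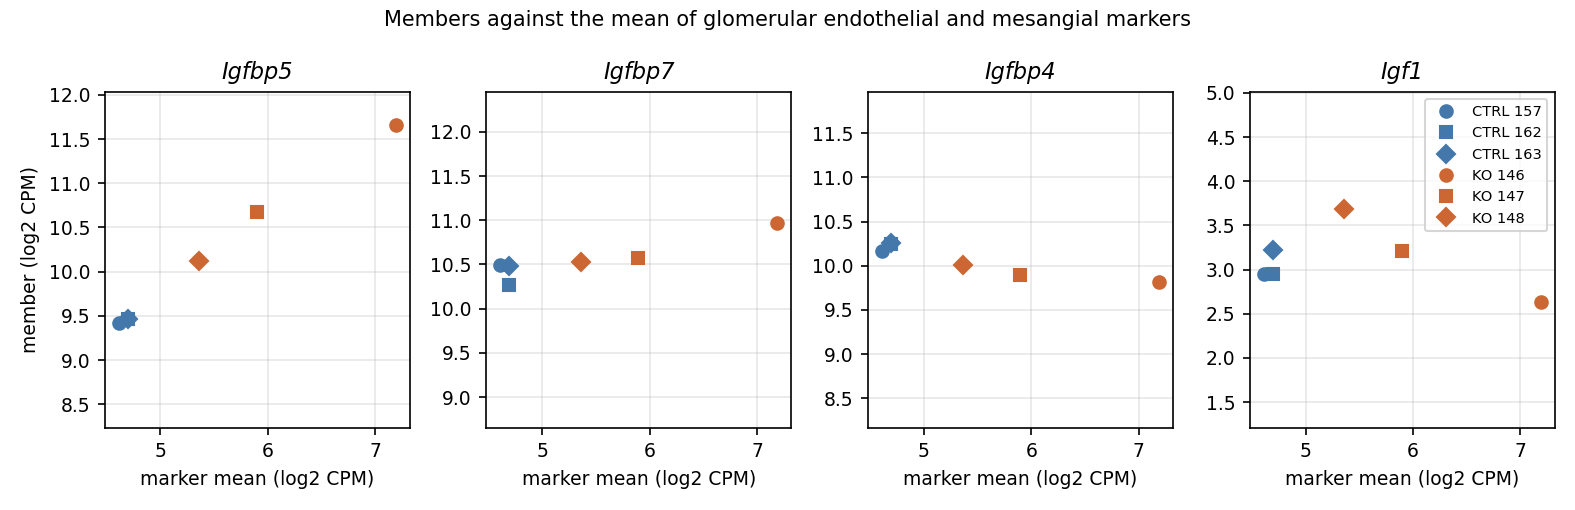
Level of 4 genes against the mean of the glomerular endothelial and the mesangial and smooth muscle marker lists, both in log2 CPM, 1 point per library, each panel spanning the same range of log2 units. Igfbp5 goes up with the marker mean across the libraries, Igfbp7 less so, Igfbp4 goes down, and Igf1 is highest in KO 148 and lowest in KO 146.

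The Igfbp5 level moved with the glomerular markers of each library, and so did the interstitial fibroblast list. The 12 fibroblast markers summed to 200 to 228 CPM in the CTRL group and to 950, 529 and 382 CPM in KO 146, 147 and 148, with a median log2 fold change of 1.46 and 1 gene called higher by edgeR. The part of each cell type in the Igfbp5 difference was not tested. Relative to the mean log2 CPM of the mesangial and smooth muscle list, Igfbp5 stood at 5.15, 5.17 and 5.15 in the CTRL libraries and 4.79, 5.24 and 5.13 in KO 146, 147 and 148. That is 5.16 ± 0.01 against 5.05 ± 0.23 (SD, n = 3 each, exact permutation p = 0.7). Relative to the glomerular endothelial list it stood at 4.48, 4.38 and 4.38 and at 4.16, 4.31 and 4.38, a difference of -0.13 (exact permutation p = 0.3). The offset from the podocyte list was 3.76 ± 0.15 in the CTRL group and 3.43 ± 0.09 in the KO group (SD, n = 3 each, exact permutation p = 0.1, the smallest possible), with no overlap and the KO libraries lower. Adjusted over the 10 genes these p values were 0.7, 0.3 and 0.111. The podocyte offset was lower in the KO group for the other members too, so this is not particular to Igfbp5. Their differences ran from -1.04 for Igfbp6 to -2.14 for Igfbp1, against -0.33 for Igfbp5. Against the proximal tubule list the Igfbp5 offset was higher in the KO libraries by 1.96 (exact permutation p = 0.1). With the endothelial and mesangial mean as a covariate the log2 fold change of Igfbp5 was 0.13 (SE 0.11, edgeR adjusted p = 0.607), and with the proximal tubule mean it was 0.16 (SE 0.13, edgeR adjusted p = 0.616). The 2 protein-coding genes nearest to Igfbp5 in pattern over the 6 libraries were Tcim and Tmsb10, an actin monomer binding protein, out of 10872 with a mean of at least 5 CPM. Their root mean square distances were 0.028 and 0.034 in centred log2 CPM, where the SD of Igfbp5 itself was 0.82. Tmsb10 went 28.8, 29.3 and 29 CPM in the CTRL libraries and 132, 70.4 and 48 CPM in the KO libraries.

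Igfbp7 (ENSMUSG00000036256, chromosome 5, 77349240 to 77408041, minus strand), the weak IGF binder, had 1439, 1232 and 1428 CPM in the CTRL libraries and 1999, 1529 and 1477 CPM in KO 146, 147 and 148. The groups did not overlap, though KO 148 lay only just above the CTRL range. Its log2 fold change was 0.29 (SE 0.16, 95% interval -0.1 to 0.68, edgeR adjusted p = 0.284), and 0.13 without KO 146 (edgeR adjusted p = 0.363). The value turned to -0.09 with the endothelial and mesangial covariate (edgeR adjusted p = 0.792). Relative to the endothelial markers Igfbp7 stood at 5.55, 5.18 and 5.40 log2 units in the CTRL libraries and 3.46, 4.22 and 4.80 in the KO libraries. The mean difference of this offset, KO minus CTRL, was -1.22 (exact permutation p = 0.1, 0.143 adjusted over the 10 genes), with the smallest offset in KO 146. It was negative for the other members too, from -0.13 for Igfbp5 to -1.94 for Igfbp1, so it is not particular to Igfbp7. With any 1 library left out the difference ran from -1.54 to -0.87 for Igfbp7 and from -0.18 to -0.07 for Igfbp5. Exons of Polr2b, on the other strand, overlap those of Igfbp7 by 85 bp.

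Igfbp4 (ENSMUSG00000017493, chromosome 11, 99041244 to 99054392, plus strand), whose product is the substrate of the protease PAPP-A, was the abundant member with lower values in the libraries labelled KO. It had 1152, 1214 and 1226 CPM in CTRL 157, 162 and 163 and 905, 951 and 1031 CPM in KO 146, 147 and 148. No KO library reached the CTRL range. The log2 fold change was -0.32 (SE 0.11, 95% interval -0.59 to -0.04, edgeR adjusted p = 0.131), which is 0.804 times the CTRL level. Without KO 146 it was -0.28 (SE 0.08) and called (edgeR adjusted p = 0.0364), next to 17.2% of all genes. DESeq2 called it at -0.31 (adjusted p = 0.0132), next to 17.3% of all genes. Over all alternatives the adjusted p ran from 0.0132 to 0.465. The value was -0.18 with library totals (edgeR adjusted p = 0.18), -0.18 with the endothelial and mesangial covariate (edgeR adjusted p = 0.465) and -0.19 with the proximal tubule covariate (edgeR adjusted p = 0.419). Relative to the proximal tubule markers Igfbp4 stood at -0.12, 0.05 and 0.07 log2 units in the CTRL libraries and 0.62, 0.13 and 0.09 in the KO libraries. The KO offsets were higher by 0.28 (exact permutation p = 0.1), and the highest was in KO 146, with the lowest tubule marker sum. This difference was positive for the other members too, from 0.16 for Igfbp1 to 1.96 for Igfbp5. In all, groups did not overlap for 3 of the 10 genes, Igfbp5, Igfbp7 and Igfbp4, against 41.5% of all tested genes (21.9% with KO above and 19.6% with KO below).

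Among the scarcer binding protein genes the groups overlapped in every case. Igfbp1 (ENSMUSG00000020429), an insulin-repressed gene of the liver, had 13.8, 21.6 and 10.8 CPM in the CTRL libraries and 8.12, 11.8 and 13.5 CPM in the KO libraries (log2 fold change -0.47, SE 0.29, edgeR adjusted p = 0.324). CTRL 162 was the highest for this gene, and without it the value was -0.15 (edgeR adjusted p = 0.745). Igfbp3 (ENSMUSG00000020427), the main IGF carrier of the blood, had 20.9, 35.1 and 24.7 CPM and 27.8, 32.2 and 27 CPM (0.11, SE 0.19, edgeR adjusted p = 0.734). Here too CTRL 162 was the highest, and without it the difference was 0.34 (edgeR adjusted p = 0.249). Igfbp2 (ENSMUSG00000039323) was counted only 37 to 57 times a library, at 0.858 to 1.05 CPM in the CTRL group and 0.966 to 1.11 CPM in the KO group (0.09, SE 0.19, edgeR adjusted p = 0.775). Igfbp6 (ENSMUSG00000023046), whose product prefers IGF2 over IGF1, had 11, 19 and 24 counts in the CTRL libraries and 68, 16 and 31 in KO 146, 147 and 148. Its log2 fold change of 0.8 (SE 0.47, 95% interval -0.32 to 1.91, edgeR adjusted p = 0.296) was 0.31 without KO 146 (edgeR adjusted p = 0.663). KO 147 lay within the CTRL range for this gene, at 0.386 CPM against 0.256 to 0.542 CPM.

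**Figure D3:**
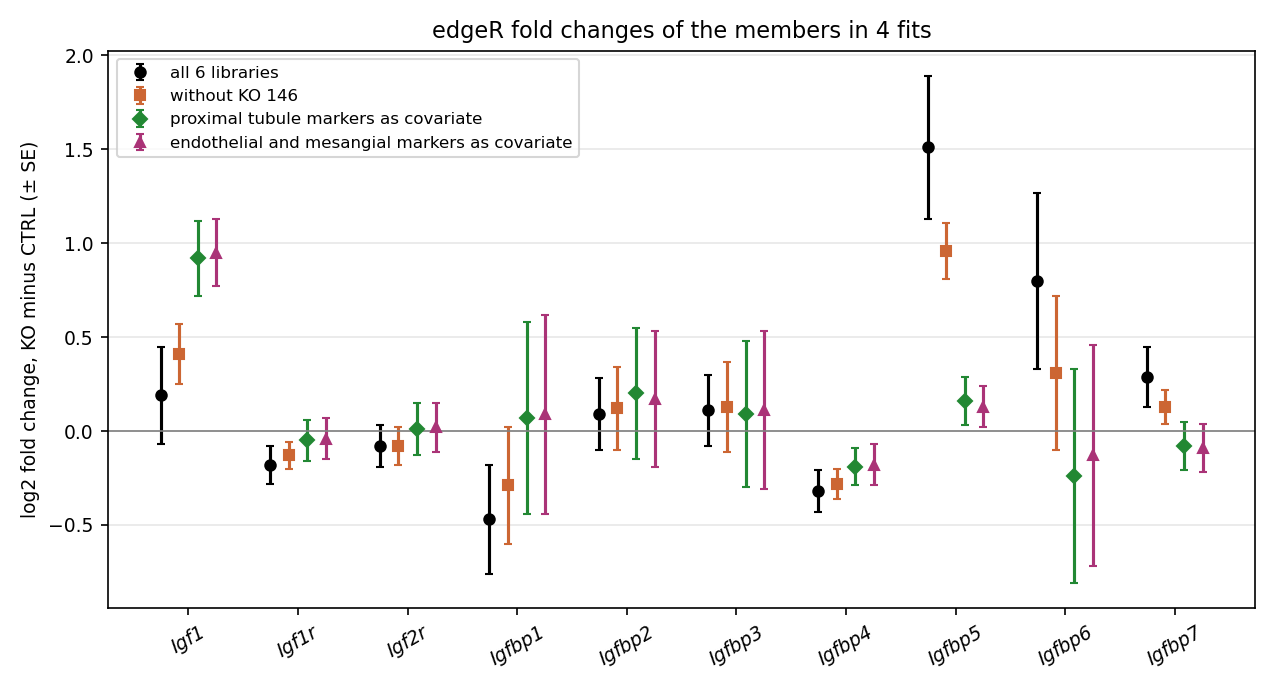
Log2 fold change of each gene, KO minus CTRL, with its standard error, from 4 edgeR fits. Igfbp5 goes from 1.51 with all libraries to 0.96 without KO 146 and to 0.16 and 0.13 with the marker covariates, and Igf1 goes from 0.19 to 0.92 and 0.95 with those covariates.

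Igfbp2 and Igfbp5 lie next to each other on chromosome 1, tail to tail and 5457 bp apart, and Igfbp1 and Igfbp3 lie likewise 3539 bp apart on chromosome 11. Levels of the first pair were far apart. Per kilobase, the mean of Igfbp5 was 224 times that of Igfbp2 in the CTRL group and 600 times in the KO group. For the second pair, Igfbp3 stood at 0.851 times Igfbp1 in the CTRL group and 1.27 times in the KO group. The ratio within a library was 0.736, 0.792 and 1.11 for CTRL and 1.67, 1.33 and 0.976 for KO, which overlap (exact permutation p = 0.2).

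The makeup of the binding protein transcripts was then compared, as each gene's share of the length-scaled counts of Igfbp1 to Igfbp7, which does not depend on library size. Igfbp5 held 7.22%, 8.19% and 7.37% in the CTRL libraries and 22.4%, 15.3% and 11.1% in KO 146, 147 and 148. Its mean share was 7.59% ± 0.52 and 16.3% ± 5.69 (SD, n = 3 each). The share of Igfbp4 was 16.5%, 19.1% and 17.4% in the CTRL libraries and 8.48%, 12.2% and 14.1% in the KO libraries. Neither gene's groups overlapped, and both had an exact permutation p = 0.1, the smallest that 3 against 3 allows, with 0.35 after adjustment over the 7 genes. The difference in share was 8.69 percentage points for Igfbp5 and -6.11 for Igfbp4, and from counts without length scaling it was 19.5 and -14.3. Shares of a library add up to a fixed whole, so a larger Igfbp5 share lowers the others and these differences are not independent. Igfbp7 held most of the pool in every library, 70.9% to 75.2% in the CTRL group and 68.5% to 73.7% in the KO group (exact permutation p = 0.4). The other 4 genes held under 1% each. Summed over the 7 genes the level was 1582, 1438 and 1592 CPM per kb in the CTRL libraries and 2414, 1771 and 1658 CPM per kb in the KO libraries (exact permutation p = 0.1). Without Igfbp5 the sums were 1468, 1321 and 1474 and 1874, 1499 and 1474, so that KO 148 matched CTRL 163 once Igfbp5 was taken out.

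**Figure D4:**
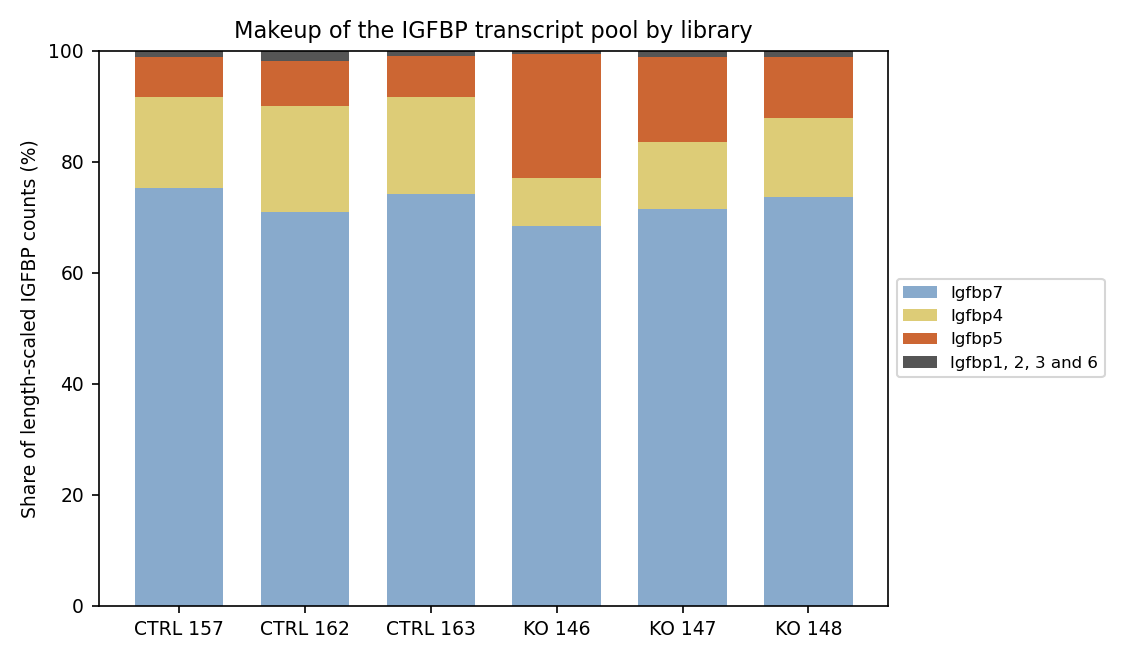
Share of each binding protein gene in the length-scaled counts of Igfbp1 to Igfbp7, in percent, 1 stacked bar per library. Igfbp7 fills 68.5% to 75.2% of every bar, while the Igfbp5 segment is wider and the Igfbp4 segment narrower in the 3 KO libraries.

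Genes that carry, cleave or sequester IGF complexes gave 1 call in the main edgeR fit (all 6 libraries, low counts filtered, no covariate). Of 10 such genes 8 were tested, with a median log2 fold change of -0.05. EdgeR called 1 higher and 0 lower, next to 0.591% and 0.421% of all tested genes. DESeq2 called 1 higher and 2 lower, next to 11.6% and 5.64%. Adam12, a metalloprotease that can cleave IGFBP3 and IGFBP5, had 2, 1.97 and 2.37 CPM in the CTRL libraries and 23.3, 11.1 and 8.36 CPM in the KO libraries. It rose by 2.76 (SE 0.40, edgeR adjusted p = 0.0405). With the endothelial and mesangial covariate it was 1.4 and still called (edgeR adjusted p = 0.00118). Leaving out any CTRL library or KO 147, limma-voom, library totals and no filter each ended the call, and over all alternatives its adjusted p ran from 5.73e-10 to 0.23. Pappa2, a pappalysin that cleaves IGFBP3 and IGFBP5, had 3.23, 3.12 and 2.89 CPM against 1.59, 1.13 and 1.54 CPM, with no overlap (log2 fold change -1.11, SE 0.19, edgeR adjusted p = 0.0594). It kept -1.23 with the endothelial and mesangial covariate (edgeR adjusted p = 0.0727). Without KO 146 or KO 148 it was called, next to 17.2% and 18.3% of all genes. Pappa2 was also called by DESeq2, next to 17.3% of all genes, and by edgeR with no filter, among 960 genes in all.

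Downstream of the receptors the main edgeR fit called no gene of 2 lists. In the insulin receptor and adaptor list 14 of 15 genes were tested, 0 were called and 0 and 2 had an unadjusted edgeR p below 0.05 in the higher and lower direction. The insulin receptor Insr stood at 82 ± 4.32 CPM in the CTRL group and 70.1 ± 3.18 CPM in the KO group (SD, n = 3 each, log2 fold change -0.23, edgeR adjusted p = 0.122). The exchange factor Sos1 had a value of -0.20 (edgeR adjusted p = 0.159), and the list median was 0.07. All 26 genes of the PI3K, AKT, FOXO and mTOR list were tested, with 0 called, a median of 0.02, and 6 higher and 2 lower at an unadjusted edgeR p below 0.05, next to 17.5% and 11.8% of all tested genes. Mtor had 175, 159 and 160 CPM against 113, 129 and 120 CPM (-0.45, edgeR adjusted p = 0.0729) and -0.35 with the endothelial and mesangial covariate. With all 6 libraries and no filter on low counts edgeR did call Mtor, among 960 genes in all. Without KO 146 edgeR called 4 genes of this list higher and 2 lower, and without KO 148 it called 3 higher and 1 lower, Mtor among them both times. In the insulin receptor list it called 0 without KO 146 and 1 lower without KO 148. Of all genes, 17.2% were called without KO 146 and 18.3% without KO 148, in either direction. DESeq2 called 0 genes of the insulin receptor list, and 3 higher and 1 lower of the other, next to 11.6% and 5.64% of all tested genes.

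In the growth hormone axis, which drives Igf1 transcription in the liver, all 8 genes were tested and 0 were called by the main edgeR fit. DESeq2 called 1 higher and 1 lower, next to 11.6% and 5.64% of all tested genes. The list median was 0.03. The receptor Ghr had 393, 415 and 421 CPM in the CTRL libraries and 210, 295 and 300 CPM in the KO libraries (log2 fold change -0.61, edgeR adjusted p = 0.0777). Socs3, an inhibitor of cytokine receptor signalling, had 3.74, 4.54 and 4.47 CPM against 13.4, 8.37 and 8.56 CPM (1.25, edgeR adjusted p = 0.0599). Both separated the groups, as 41.5% of all tested genes did. They were called without KO 146 or KO 148, where 17.2% and 18.3% of all genes were called. With all 6 libraries and no filter edgeR called both too, among 960 genes in all. With the endothelial and mesangial covariate Ghr was at -0.19 (edgeR adjusted p = 0.455) and Socs3 at 0.64 (edgeR adjusted p = 0.114). Other proteins share the IGFBP domain of the members, and 8 of 12 such genes were tested. All 8 had a positive log2 fold change, with a median of 0.77. Calls numbered 0 with the main edgeR fit and limma-voom and 3 higher with DESeq2, which called 11.6% of all tested genes higher. At an unadjusted edgeR p below 0.05 there were 5 higher and 0 lower, next to 17.5% and 11.8% of all tested genes, of which 8419 of 17086 had a positive value. The matricellular gene Ccn2 (1.66, edgeR adjusted p = 0.0755) and the protease gene Htra4 (0.69, edgeR adjusted p = 0.0817) had the smallest p values, and were at 0.41 and 0.43 with the endothelial and mesangial covariate. In that fit the list median was 0.1.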

How the data were processed

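Per the labels' protocols, RNA was taken with a column kit from isolated glomeruli. The submitters' processing notes list HTSeq 0.11.1, STAR 2.6.0, fastp 0.19.5 and DESeq2, and give the build as GRCh37, a human assembly, although all identifiers are mouse Ensembl. The sources used here state neither annotation nor strand setting. The authors deposited raw read counts per gene, 1 file per library. The 5 closing lines that name no gene were left out (2.57% to 3.41% no feature, 1.55% to 1.79% ambiguous, 22.51% to 29.63% aligned to several places). Names, positions and exon lengths came from GENCODE M21 (GRCm38), which named 54809 identifiers. Replicates of a group differed by a chi-square per degree of freedom of at least 16.7, so none was a second copy. Whether replicates share a litter or preparation is not stated, so p values measure the spread between these libraries.

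Counts were tested in R 4.3.3 with edgeR 4.0.16 (TMM, filterByExpr with a minimum count of 10, robust quasi-likelihood F test of KO against CTRL, no covariate, Benjamini-Hochberg over all genes). The SE is the absolute log2 fold change over the square root of F. On simulated counts (16899 genes, 200 changed 2-fold, spread of the CTRL libraries) 90% of changed genes were recovered and 8 unchanged genes were called. The real KO libraries spread more widely than that, so the 90% does not give the power of this comparison. Log2 CPM used a prior count of 2. Shares and offsets were tested by exact two-sided permutation. Alternatives used DESeq2 1.42.0, limma 3.58.1, other scalings, no filter, marker covariates and each library left out. Named genes were the members, Arhgef7, called genes and the 2 smallest p values of each pathway list, and the 2 nearest genes by centred log2 CPM among those with at least 5 CPM. A gene that this rule names is not reported here. Members and lists were chosen with earlier results of these data known.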

Additional observations from a re-analysis of the deposited data

How the results depend on the processing

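No paired analysis was possible because the animals of the 2 groups share no numbers. Of 140 member fold changes recomputed under 14 alternatives, 123 kept their direction and stayed short of the edgeR, DESeq2 or limma threshold, 6 kept their direction and passed it, and 11 changed sign. Some of the 123 changed much in size. Igfbp5 went from 1.51 to 0.16 and 0.13 with the proximal tubule and the endothelial and mesangial covariate. Igf1 went from 0.19 to 0.92 with the proximal tubule covariate. The count of members called was 0 as reported, 0 to 2 with 1 library left out (0 to 1 higher and 0 to 1 lower), 2 with DESeq2 (1 higher and 1 lower) and 1 higher with the endothelial and mesangial covariate. The count of all genes called, 173 as reported, was 2 to 3211 with 1 library left out, 960 with no filter, 2953 with DESeq2 and 317 with the endothelial and mesangial covariate. With the proximal tubule and the endothelial and mesangial covariate in turn, the sign turned for Igf2r (0.01 and 0.02), Igfbp1 (0.07 and 0.09), Igfbp6 (-0.24 and -0.13) and Igfbp7 (-0.08 and -0.09). Scaling by library totals gave Igf2r 0.05. With 1 library left out, Igf1 ran from -0.11 to 0.41 and Igfbp3 from -0.05 to 0.34. The share difference of Igfbp3 then ran from -0.148 to 0.0304 percentage points, and the Igfbp5 offset from mesangial markers from -0.2 to 0.03. The cause of these turns was not tested. The share differences of Igfbp5 and Igfbp4, 8.69 and -6.11 percentage points as reported, ran from 5.64 to 11.3 and from -7.36 to -4.56 with 1 library left out, and were 19.5 and -14.3 from counts without length scaling. Igfbp2 and Igfbp6 rest on 11 to 68 reads a library.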

Other observations

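For the members not covered above, the 2 protein-coding genes nearest in pattern over the 6 libraries were Prom1 and Ybx2 for Igf1, at root mean square distances of 0.1 and 0.11 in centred log2 CPM where the SD of Igf1 was 0.32. Prom1, a membrane glycoprotein, had 75.1, 75.3 and 100 CPM in the CTRL libraries and 69.8, 84.5 and 138 CPM in KO 146, 147 and 148, and so shared with Igf1 the highest level in KO 148 and the lowest in KO 146. Igfbp4 was nearest to Larp4 and Tasp1 (0.024 for both) and Igfbp7 to Inip and Prkx (0.023 and 0.026). Igfbp1, whose SD was 0.42, was nearest to Zfp810 (0.064), with 27.7, 43.7 and 24.5 CPM in the CTRL libraries and 17.7, 24.9 and 27.3 CPM in the KO libraries. Both had their highest level in CTRL 162.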
